A study of Mus musculus with 10 samples.

Results

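Collagen prolyl 4-hydroxylases and lysyl hydroxylases were followed in sorted mouse mammary luminal cells, together with Pdlim4, the gene beside the prolyl hydroxylase gene P4ha2. The members were taken by name from the table of normalized read counts: the catalytic subunits of prolyl 4-hydroxylase (P4ha1, P4ha2 and P4ha3), the lysyl hydroxylases (Plod1, Plod2 and Plod3) and Pdlim4, 7 of the 26312 genes in the table. The set was selected on the normalized counts of P4ha2 and Pdlim4, which were lower in the RSK2(-/-) libraries, so the differences of these 2 genes between genotypes are given as a description without a test. Of the 7 members, 5 passed the filter on low values (10 or more normalized counts on average over the 10 libraries), and P4ha3 and Plod2 did not.

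The study compared mice with and without RSK2, a kinase downstream of ERK, at 2 stages of the estrous cycle, and its title asks about estrogen homeostasis. RNA came from 50000 cells per library, sorted from the fourth mammary glands as high for EpCAM, low for CD49f, positive for Sca-1 and negative for CD49b. All mice were C57BL/6J and 12 weeks old. Estrus was represented by 3 RSK2(+/+) libraries (WT) and 3 RSK2(-/-) libraries (KO), and diestrus by 2 of each genotype. No group received an agent. The labels do not say how the RSK2 allele was made, or whether a library came from 1 mouse or a pool, so p-values measure only the spread between these libraries. Titles given to KO libraries include WT as well, and groups follow the genotype entry.

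The libraries held between 14108057 and 15307238 normalized counts each, which correspond to an estimated 12007935 to 16675723 reads. Rps6ka3, which encodes RSK2 (chromosome X, 159210307 to 159368244, GRCm38), had 128 to 137 normalized counts in WT and 156 to 164 in KO at estrus, and 139 and 165 in WT and 156 and 165 in KO at diestrus. It was not lower in KO. Reads over the whole gene were counted, so the labels of genotype are not checked by it. Summed markers of hormone-sensing luminal cells (9 genes, among them Esr1, Pgr, Foxa1 and Krt8) held between 317459 and 428487 normalized counts per library. The sums were 3060 to 4270 for 6 luminal progenitor markers and 337 to 1227 for 8 basal markers. Most of the hormone-sensing sum came from Krt8, Krt18 and Epcam, with means of 152341, 105934 and 42910. Esr1, Pgr and Foxa1 averaged 2130, 1100 and 3937. The markers of the labelled gate were thus present, but these sums do not measure the share of each cell type. Of the 6 luminal progenitor markers, Ehf was lower in KO at estrus, with 1383, 1504 and 1448 normalized counts in WT and 844, 750 and 525 in KO (log2 difference -1.06 ± 0.19, limma adjusted p = 0.0225). Elf5, the defining transcription factor of that lineage, had -0.92 ± 0.31 (limma adjusted p = 0.097). Kit had -0.20 ± 0.21 at estrus, while Aldh1a3, Cd14 and Csn3 went the other way, at 0.32 ± 0.21, 0.17 ± 0.17 and 0.15 ± 0.24. The median of the 6 was -0.03, and 2.94% of all genes were called lower in KO at estrus. None of the 9 hormone-sensing markers was called between genotypes, against 4.2% of all genes at estrus and 0.0395% at diestrus. Between stages in KO, Ehf was lower at estrus (-0.86 ± 0.21, adjusted p = 0.0215), and Cd14 (0.63 ± 0.19, adjusted p = 0.0441) was higher. Ly6a was higher as well, with 26930, 21549 and 27186 normalized counts at estrus and 14585 and 10512 at diestrus (limma adjusted p = 0.0345). So was Cd74 of the macrophage list (2.35 ± 0.66, adjusted p = 0.0342). Cd68 and Csf1r, the other macrophage markers tested, went the other way, at -0.38 ± 0.39 and -0.28 ± 0.18, and neither was called. Of all genes, 16.6% were called between stages in KO. The part of these markers in the expression results was not tested.

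Collagen chains are hydroxylated in the endoplasmic reticulum before they fold. Prolyl 4-hydroxylase, an enzyme built from a P4HA catalytic subunit and protein disulfide isomerase (P4hb), turns prolines into 4-hydroxyproline, which stabilises the triple helix. The PLOD enzymes hydroxylate lysines, which are then glycosylated or used for cross-links. Both families need oxygen, iron, ascorbate and 2-oxoglutarate, and P4ha1, P4ha2 and Plod2 are known to be induced in hypoxia. Pdlim4 (RIL) encodes an actin-associated protein with a PDZ and a LIM domain and has no known role in collagen hydroxylation.

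P4ha2 (ENSMUSG00000018906, plus strand, chr11:54100095-54131665) and Pdlim4 (ENSMUSG00000020388, minus strand, chr11:54054928-54069014) lie head to head in GRCm38, with their annotated starts 31.1 kb apart. The 250 bases upstream of their RefSeq starts (GRCm38.p6) are shown because these are the neighbouring genes that the set was selected on, and those of P4ha1 because it is the other measured catalytic subunit. Capitals mark the letters ACGTG on either strand, a form of the core of the site bound by hypoxia-inducible factors (CACGT is the same form on the opposite strand). The form GCGTG was neither searched nor marked. The P4ha2 stretch is the plus strand of chr11:54100674-54100923, the Pdlim4 stretch the minus strand of chr11:54069018-54069267, and the P4ha1 stretch the plus strand of chr10:59323046-59323295. Each ends at the base before the RefSeq start, and the P4ha2 stretch lies inside the GENCODE gene, which has an earlier start.
P4ha2: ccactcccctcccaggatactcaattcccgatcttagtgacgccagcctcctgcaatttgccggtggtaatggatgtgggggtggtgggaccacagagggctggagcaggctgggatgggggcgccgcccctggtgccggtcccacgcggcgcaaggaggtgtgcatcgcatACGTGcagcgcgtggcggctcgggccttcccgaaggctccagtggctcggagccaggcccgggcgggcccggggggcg
Pdlim4: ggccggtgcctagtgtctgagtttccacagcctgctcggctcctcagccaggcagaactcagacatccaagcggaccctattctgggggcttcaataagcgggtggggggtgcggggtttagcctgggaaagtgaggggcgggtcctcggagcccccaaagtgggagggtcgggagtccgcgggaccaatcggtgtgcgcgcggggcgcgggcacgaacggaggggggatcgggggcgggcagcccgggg
P4ha1: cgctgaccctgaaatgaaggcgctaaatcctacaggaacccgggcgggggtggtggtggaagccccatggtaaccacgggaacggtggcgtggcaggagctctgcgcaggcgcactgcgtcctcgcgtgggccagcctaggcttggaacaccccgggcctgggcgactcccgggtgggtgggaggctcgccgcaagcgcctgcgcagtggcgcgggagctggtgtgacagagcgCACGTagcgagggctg
The 3 stretches had GC contents of 70.0%, 69.2% and 69.6%. The ACGTG form of the hypoxia core matched once in P4ha2, with its first base at -78 from the start, once in P4ha1 at -16, and nowhere in the Pdlim4 stretch. It also matched once upstream of Plod3, at -54, and not upstream of P4ha3 or Plod1. Plod2 had no matching entry. ACGTG was present in 16.6% of all 32851 promoter stretches of the same length. The letters TGACG, part of the site of CREB family factors, matched once in P4ha2, at -213, and in no other member, against 17.8% of all stretches. TGANTCA, the site of AP-1, matched in none of the 6 members, against 6.75% of all stretches. GGGCGG, a GC box, matched 2 times each upstream of P4ha2, Pdlim4 and Plod1, once upstream of P4ha1 and 5 times upstream of P4ha3, against 32.7% of stretches with at least 1 match. All 4 motifs were searched on both strands, none of them holds another, and a match is a description of the letters only.

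**Figure D1:**
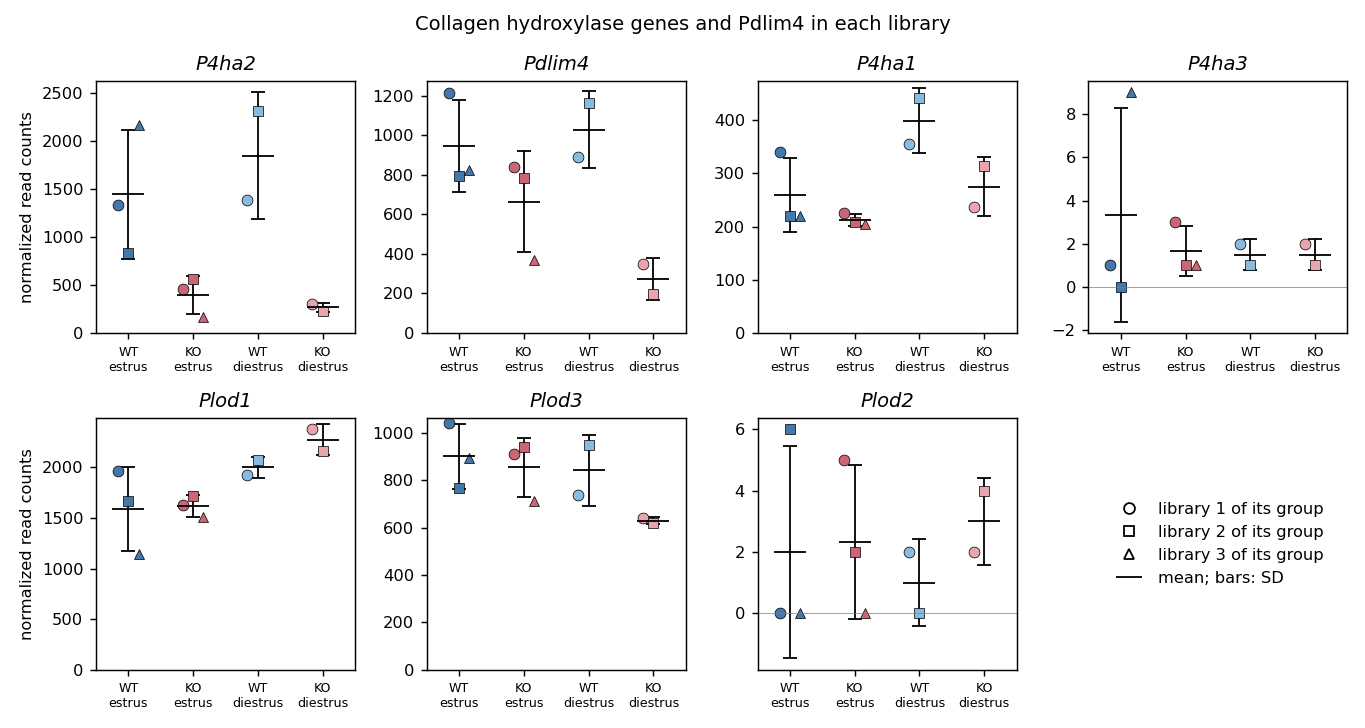
Normalized read counts (vertical axis, linear) of the 7 members in each of the 10 libraries, by group; points are libraries, the horizontal line is the group mean and the bars are the SD. P4ha2 in the 5 KO libraries sits between 172 and 559, below the 839 to 2318 of the 5 WT libraries, whereas P4ha3 and Plod2 never exceed 9.

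P4ha2 was lower in KO than in WT at both stages. It had 1334, 839 and 2170 normalized counts in the 3 WT estrus libraries and 456, 559 and 172 in the 3 KO estrus libraries. At diestrus it had 1384 and 2318 in WT and 302 and 231 in KO. Every KO library lay below every WT library, a pattern found in 1.15% of the 15180 genes tested. Group means were 1448 ± 673 (SD, n = 3) in WT estrus and 396 ± 200 (n = 3) in KO estrus, and 1851 ± 660 (n = 2) in WT diestrus and 267 ± 50.2 (n = 2) in KO diestrus. On the log2(value + 1) scale, the limma estimate was -1.93 ± 0.42 (SE) at estrus, which is 3.80-fold lower, and -2.76 ± 0.52 at diestrus, 6.76-fold lower. KO estrus library 3, with 172, was the lowest of the 10, and without it the estrus difference was -1.41. The WT libraries spread widely too, from 839 to 2318.

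Pdlim4 was lower in KO at diestrus, and at estrus its groups overlapped. It had 889 and 1164 normalized counts in WT diestrus and 347 and 198 in KO diestrus, a log2 difference of -1.95 ± 0.38 (3.87-fold lower). At estrus it had 1212, 795 and 825 in WT and 837, 785 and 370 in KO, a log2 difference of -0.57 ± 0.31 (1.48-fold lower). KO estrus libraries 1 and 2 thus lay at the level of WT estrus libraries 2 and 3, and the estrus difference was -0.19 without KO estrus library 3. Within KO, the 3 estrus libraries were all above the 2 diestrus libraries, by 1.25 ± 0.35 on the log2 scale, a pattern without overlap that 25.0% of all genes had. Being lower in both KO libraries at diestrus was seen in 21.6% of all genes. The difference between the 2 genotype effects was 1.38 ± 0.49 for Pdlim4 and 0.83 ± 0.67 for P4ha2, both described without a test.

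The ratio of P4ha2 to Pdlim4 normalized counts was not constant over the libraries. It was 1.10, 1.06 and 2.63 in the WT estrus libraries and 0.545, 0.712 and 0.465 in the KO estrus libraries. At diestrus it was 1.56 and 1.99 in WT and 0.870 and 1.17 in KO. KO libraries had the lower ratio at estrus with no overlap, and at diestrus the 2 KO libraries were also below the 2 WT libraries. Since the set was selected on these 2 genes, the ratio restates their differences in another form and received no test.

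P4ha1 (ENSMUSG00000019916, plus strand, chr10:59323296-59373304), the other catalytic subunit at a measurable level, did not pass the test in any comparison. It had 340, 219 and 219 normalized counts in WT estrus and 225, 208 and 204 in KO estrus, where the groups overlapped. At diestrus it had 356 and 442 in WT and 236 and 314 in KO, where they did not. The log2 difference was -0.26 ± 0.20 (limma adjusted p = 0.456) at estrus and -0.54 ± 0.25 (unadjusted p = 0.0493, adjusted p = 0.836) at diestrus. Its estrus libraries were below its diestrus libraries in both genotypes, by -0.64 ± 0.23 in WT (unadjusted p = 0.0148, adjusted p = 1.0) and -0.36 ± 0.23 in KO (adjusted p = 0.29).

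The share of P4ha2 among the catalytic subunit transcripts was lower in every KO library than in every WT library. Levels of the 2 genes were compared per kb of exonic sequence (6.24 kb for P4ha2 and 4.11 kb for P4ha1). P4ha2 made up 72.1%, 71.6% and 86.7% of the sum of both in the WT estrus libraries and 57.2%, 63.9% and 35.7% in the KO estrus libraries. At diestrus its share was 71.9% and 77.6% in WT and 45.8% and 32.7% in KO. The sum itself was 188 to 401 normalized counts per kb in the 5 WT libraries and 77.2 to 140 in the 5 KO libraries. The sum did not overlap between genotypes either. Since P4ha2 enters both values, they restate its difference in another form and received no test.

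P4ha3 (chr7:100285520-100319699) was near the limit of detection. It was listed at 1, 0 and 9 normalized counts in WT estrus, 3, 1 and 1 in KO estrus, and 2 and 1 in both diestrus groups. Plod2 (chr9:92542223-92608428), whose product hydroxylates the lysines of collagen telopeptides, was as low, with 0, 6 and 0 in WT estrus, 5, 2 and 0 in KO estrus, 2 and 0 in WT diestrus and 2 and 4 in KO diestrus. By counting error alone, a listed 0 allows an expected count of up to about 3 reads. That bound is 2.54 to 3.58 normalized counts, depending on the library. No difference in either gene was detectable at this depth.

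Plod1 (ENSMUSG00000019055, chr4:147909753-147936767), which hydroxylates lysines of the collagen helix, was the most abundant lysyl hydroxylase transcript per length, at a mean of 269 normalized counts per kb over all libraries against 182 for Plod3. It had 1968, 1667 and 1145 normalized counts in WT estrus and 1628, 1722 and 1509 in KO estrus, with full overlap (log2 difference 0.06 ± 0.18, limma adjusted p = 0.87). At diestrus it had 1924 and 2075 in WT and 2383 and 2165 in KO, both KO values being higher (0.18 ± 0.22, adjusted p = 0.996). Its direction was thus opposite to that of P4ha2 at diestrus, without passing the test. Estrus was below diestrus in all KO libraries, by -0.49 ± 0.20 (unadjusted p = 0.0298, adjusted p = 0.107). That adjusted p became 0.0409 without WT estrus library 3, which enters the KO comparison only through the shared estimate of the spread, and with each library's length trend removed the difference was -0.27 (adjusted p = 0.404).

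Plod3 (ENSMUSG00000004846, chr5:136987019-136996648) encodes an enzyme that hydroxylates lysines and also glycosylates them. It had 1042, 766 and 895 normalized counts in WT estrus and 910, 939 and 712 in KO estrus, which overlapped (-0.08 ± 0.16, limma adjusted p = 0.807). At diestrus it had 736 and 948 in WT and 639 and 618 in KO, both KO values being lower (-0.41 ± 0.20, adjusted p = 0.858). Within KO it was higher at estrus than at diestrus, by 0.43 ± 0.18 (unadjusted p = 0.0377, adjusted p = 0.125), the opposite direction to Plod1. The 5' end of Plod3 overlaps Znhit1 on the other strand, and no source used here says whether counting used strand, so part of its count is uncertain.

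**Figure D2:**
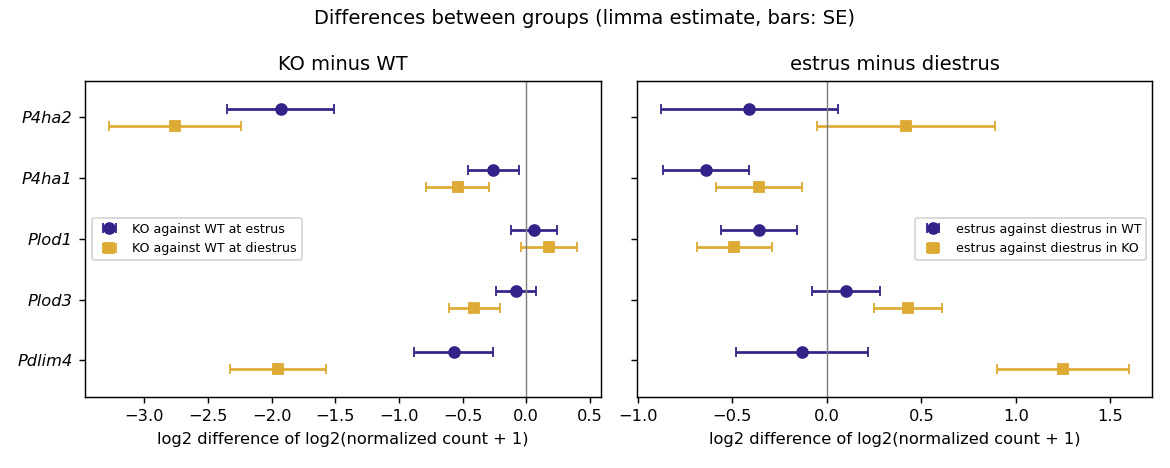
Limma log2 differences of log2(normalized count + 1) for the 5 members above the filter, with bars for the SE; KO minus WT at each stage on the left, estrus minus diestrus in each genotype on the right. P4ha2 lies farthest to the left at both stages, at -1.93 and -2.76, while Plod1 and Plod3 stay between -0.41 and 0.18 in the left panel.

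Between genotypes, the 3 members above the filter whose own values the choice did not use (P4ha1, Plod1 and Plod3) were tested. They were listed with earlier results of these data known and share the libraries of that choice, so the tests are not independent of it. None of the 3 passed at estrus, where 4.2% of all tested genes did, and none had an unadjusted p below 0.05. None passed at diestrus, where 0.0395% of all genes did, and 1 of the 3 (P4ha1) was below 0.05 unadjusted. Their values without overlap at diestrus (P4ha1 and Plod3 lower, Plod1 higher) are read against 21.6% of all genes that were lower and 21.4% that were higher in both KO libraries. The test of the interaction passed for none of the 3, as for 0.0% of all genes, although 2150 of 15180 genes had an unadjusted p below 0.05.

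Between stages in WT, none of P4ha1, Plod1 and Plod3 passed. None of all genes did (0.0%, with 588 genes at an unadjusted p below 0.05). P4ha2 and Pdlim4 were chosen on values that include these WT libraries, so they are described without a test. The log2 difference of estrus against diestrus was -0.41 ± 0.47 for P4ha2 and -0.13 ± 0.35 for Pdlim4, with overlap in both. P4ha1 was the 1 member whose WT groups did not overlap, as 8.99% of all genes did in that direction. In KO, none of the 3 testable members passed between stages, against 16.6% of all genes, and 2 of the 3 (Plod1 and Plod3) had an unadjusted p below 0.05. All 3 were without overlap there, as were 26.0% of all genes with lower and 25.0% with higher values at estrus. The genotype and stage comparisons share libraries.

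Per kb of exonic sequence, the order of the members' levels differed between groups. In WT estrus Pdlim4 was highest at 369 ± 90.9 normalized counts per kb (SD, n = 3), followed by Plod1 at 236 ± 61.6, P4ha2 at 232 ± 108, Plod3 at 199 ± 30.6 and P4ha1 at 63.0 ± 17.0. The values of Plod1, P4ha2 and Plod3 overlapped there. In WT diestrus P4ha2 (297 ± 106, n = 2) and Plod1 (296 ± 15.8) were again level. In KO estrus P4ha2 (63.4 ± 32.1, n = 3) stood beside P4ha1 (51.6 ± 2.71), with overlapping libraries, below Pdlim4, Plod1 and Plod3. In KO diestrus P4ha2 (42.7 ± 8.05, n = 2) was below P4ha1 (66.8 ± 13.4), with no overlap, and Plod1 (336 ± 22.8) was highest.

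Across the 10 libraries, P4ha2 and Pdlim4 had a Pearson r of 0.83 on the log2 scale. This is a description over libraries that share groups. By likeness to P4ha2, Pdlim4 had rank 75 among 11913 genes with a mean of at least 50, and P4ha2 had rank 77 by likeness to Pdlim4. The 5 closest to P4ha2 were Rufy3 (r = 0.966), Hspa4l (0.934), Sgsm3 (0.927), Stxbp6 (0.925) and Cers6 (0.923). Rufy3, for example, had 136, 106 and 180 normalized counts in WT estrus, 80, 85 and 50 in KO estrus, 121 and 188 in WT diestrus and 60 and 78 in KO diestrus. The 5 closest to Pdlim4 were A530084C06Rik (0.951), Ggt1 (0.951), Vps45 (0.937), Teddm2 (0.936) and Cep70 (0.934). Ggt1, a gamma-glutamyltransferase, had 2874, 2240 and 1283 in WT estrus, 2185, 2158 and 954 in KO estrus, 2066 and 2297 in WT diestrus and 660 and 487 in KO diestrus. Among the other members, Plod3 had r = 0.87 with Pdlim4 and 0.65 with P4ha2, while Plod1 had -0.26 and -0.22.

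None of the other genes tested around P4ha2 and Pdlim4 was called between genotypes. GENCODE M21 places 34 genes within 500 kb of P4ha2, of which 25 were in the table and 12 passed the filter. Of the 10 tested besides P4ha2 and Pdlim4, none passed between genotypes at estrus (limma, lowest adjusted p = 0.0934, Gm12216) or at diestrus (lowest adjusted p = 0.536, Slc22a4). The shares of all tested genes that passed were 4.2% at estrus and 0.0395% at diestrus. Slc22a4, an organic cation transporter gene whose start is 72.0 kb from that of P4ha2 on the far side of Pdlim4, had lower values in KO at both stages and did not pass the test. It had 338, 252 and 352 normalized counts in WT estrus, 245, 211 and 226 in KO estrus, 298 and 321 in WT diestrus and 213 and 179 in KO diestrus. Its KO values were lower without overlap at both stages, as in 13.1% of all genes at estrus and 21.6% at diestrus. Every KO library also lay below every WT library of either stage, as for P4ha2, a pattern found in 1.15% of all genes. The log2 differences were -0.45 ± 0.17 (limma adjusted p = 0.123) at estrus and -0.66 ± 0.21 (adjusted p = 0.536) at diestrus. Slc22a21 and Slc22a5, the next transporter genes on that side, had -0.26 ± 0.24 and 0.10 ± 0.15 at estrus. On the other side, the noncoding 4933405E24Rik had -0.78 ± 0.64 at estrus and -0.69 ± 0.78 at diestrus at a mean of 19.7 normalized counts, and Fnip1 had -0.63 ± 0.21 (adjusted p = 0.0953) at estrus but 0.02 ± 0.26 at diestrus. Rad50 (-0.06 ± 0.13) and Irf1 (0.08 ± 0.23) were near 0 at estrus.

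**Figure D3:**
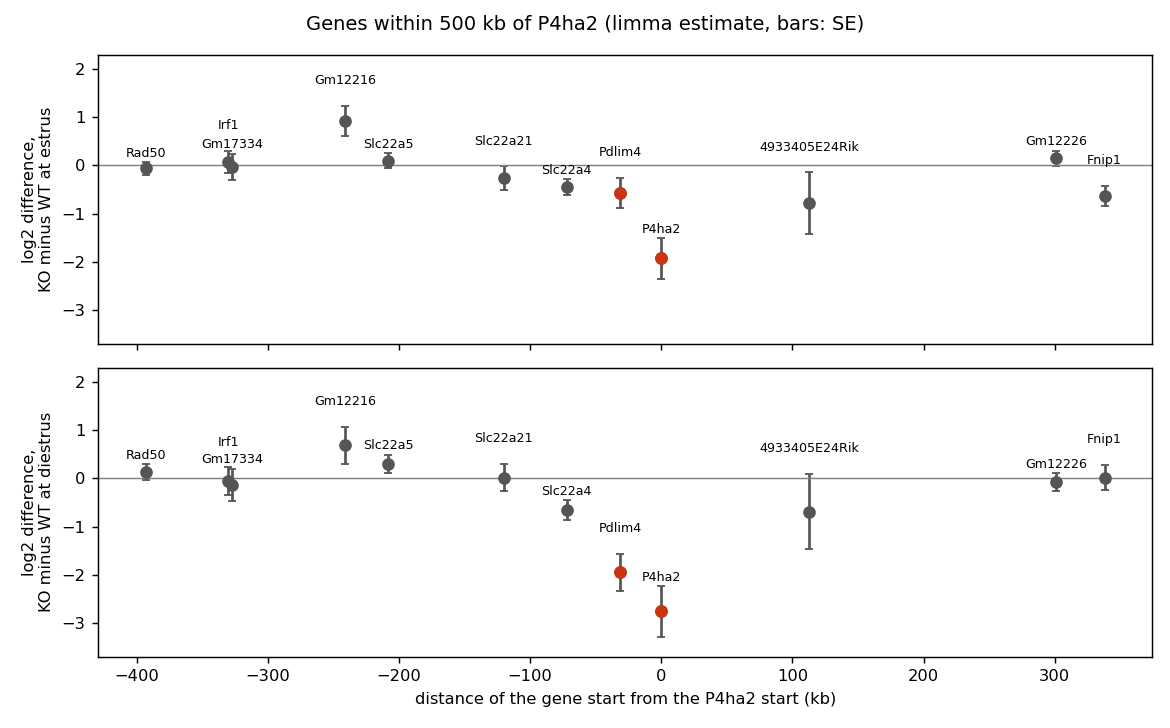
Limma log2 difference of KO minus WT (vertical axis, bars: SE) at estrus (top) and diestrus (bottom) for the 12 tested genes within 500 kb of P4ha2, by the distance of their starts from that of P4ha2 in kb. P4ha2 and Pdlim4, in red, are the genes the set was selected on for lower KO values. They are the lowest points at diestrus (-2.76 and -1.95), where the other 10 genes lie between -0.69 and 0.69. At estrus 4933405E24Rik (-0.78) and Fnip1 (-0.63) lie below Pdlim4 (-0.57).

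Enzymes that act with the hydroxylases did not pass the test between genotypes. Of 16 other genes of collagen modification and folding (prolyl 3-hydroxylases, galactosyltransferases and chaperones), 15 were tested and none was called at either stage. Over all tested genes, 4.2% were called at estrus and 0.0395% at diestrus. The median log2 differences of the list were 0.15 at estrus and 0.13 at diestrus against -0.01 and 0.00 over all genes. P4hb, the partner subunit of the P4HA proteins, had 12533 to 14814 normalized counts in the 6 estrus libraries and 11766 to 18109 at diestrus. Its log2 difference was -0.10 ± 0.17 (adjusted p = 0.761) at estrus and -0.24 ± 0.21 (adjusted p = 0.973) at diestrus. Pdia3, a disulfide isomerase, had -0.27 ± 0.18 (adjusted p = 0.369) at estrus. The list for collagen processing and cross-linking held 13 genes, of which 12 were in the table and 5 were tested, with none called between genotypes. Lox, Loxl1 and Loxl2 averaged 0.8, 0.6 and 2.5 normalized counts. Bmp1, which removes the C-propeptide, had -0.11 ± 0.13 (limma adjusted p = 0.625) at estrus. Between stages in KO, 16.6% of all genes were called, 7.67% higher and 8.95% lower at estrus. Loxl3, a lysyl oxidase, was the 1 gene of this list called in another contrast: within KO it was higher at estrus, with 205, 189 and 177 normalized counts against 106 and 88 at diestrus (0.97 ± 0.20, adjusted p = 0.0124), a call lost without either KO diestrus library.

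The substrates of these enzymes were mostly low in the sorted cells. Of 31 collagen chain genes, 15 passed the filter and none was called between genotypes at either stage. Of all tested genes, 4.2% were called at estrus and 0.0395% at diestrus. Col1a1 had 1 to 11 normalized counts per library and Col1a2 1 to 9. The chain with the most normalized counts was Col8a1, with 504, 1730 and 450 in WT estrus, 657, 966 and 4236 in KO estrus, 1746 and 621 in WT diestrus and 4288 and 4631 in KO diestrus (log2 difference 0.92 ± 0.66, adjusted p = 0.405, and 2.10 ± 0.80, adjusted p = 0.721). Its WT and KO libraries overlapped at estrus. At diestrus both KO values were higher, as in 21.4% of all genes. Col4a5, a basement membrane chain, had -0.17 ± 0.26 (adjusted p = 0.711) at estrus. The median log2 difference of the 15 chains was -0.05 at estrus and 0.76 at diestrus, where 12 of the 15 were positive and none passed the test. Of 10 other proteins with collagen-like or prolyl-hydroxylated stretches, 4 were tested and none was called between genotypes. Ago2, a known prolyl 4-hydroxylase substrate, had -0.05 ± 0.23 (limma adjusted p = 0.915) at estrus, and Scara3 had -0.89 ± 0.36 (adjusted p = 0.147). The contrast between stages in KO called 16.6% of all genes. Within KO, C1qb was higher and Scara3 lower at estrus, and both calls were lost without either KO diestrus library.

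Fibroblasts express collagen hydroxylases strongly, and levels of their markers were compared with those of P4ha2. Of 8 fibroblast markers, 7 were in the table, and their sum ran from 1246 to 2148 normalized counts in WT estrus, 212 to 3303 in KO estrus, 1004 to 2142 in WT diestrus and 214 to 297 in KO diestrus. Dcn and Col6a3 carried nearly all of it. Dcn had 630, 1007 and 1591 in WT estrus, 731, 3065 and 88 in KO estrus, 615 and 561 in WT diestrus and 64 and 99 in KO diestrus. Col6a3 had 1092, 225 and 534 in WT estrus, 205, 228 and 105 in KO estrus, 353 and 1552 in WT diestrus and 213 and 96 in KO diestrus, with log2 differences of -1.57 ± 0.61 (limma adjusted p = 0.129) and -2.36 ± 0.74 (adjusted p = 0.53). The defining markers Pdgfra, Pdgfrb, Lum and Fbln1 had 0 to 15 normalized counts in every library. KO estrus library 2 had the highest fibroblast sum of all libraries, 3303, and 559 normalized counts of P4ha2. KO estrus library 3 had the lowest sum, 212, and the lowest P4ha2 count, 172. The part of fibroblast RNA in the P4ha2 difference was not tested. In bulk RNA of this kind, fewer cells of a type and less RNA per cell cannot be told apart. Endothelial markers summed to 23 to 107, and macrophage markers to 332 to 725, per library.

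Genes of oxygen sensing and known targets of hypoxia-inducible factors, to which the P4HA and PLOD genes are linked, were called between genotypes at estrus only. Of 30 such genes, 28 were tested, and at estrus none was higher and 2 were lower in KO, where 1.26% of all genes were higher and 2.94% lower. Their median log2 difference was -0.19 against -0.01 over all genes, with 19 negative and 9 positive. Slc2a3, a glucose transporter gene, had 97, 177 and 59 normalized counts in WT estrus and 6, 19 and 5 in KO estrus (-3.43 ± 0.77, limma adjusted p = 0.0383). At diestrus it had 65 and 401 in WT and 10 and 1 in KO (-5.12 ± 0.95, adjusted p = 0.128). Arnt, the partner subunit of the hypoxia-inducible factors, had 504, 585 and 528 in WT estrus and 276, 367 and 355 in KO estrus (-0.70 ± 0.15, adjusted p = 0.0348), and was level at diestrus (581 and 682 in WT, 650 and 628 in KO). With single libraries left out, the log2 difference ran from -3.97 to -3.02 for Slc2a3 and from -0.78 to -0.57 for Arnt, and the adjusted p passed the threshold in some of these fits only. The adjusted p of Slc2a3 was above 0.05 without any 1 of 7 libraries: 0.054, 0.103 and 0.0725 without WT estrus 1, 2 and 3, 0.114 and 0.0553 without KO estrus 1 and 3, and 0.0547 and 0.0548 without KO diestrus 1 and 2. That of Arnt was 0.0938 and 0.0865 without WT estrus 2 and 3, 0.0928 without KO estrus 1, 0.0556 and 0.0557 without WT diestrus 1 and 2, and 0.0662 and 0.0664 without KO diestrus 1 and 2. None of the 28 was called at diestrus, where 0.0395% of all genes were. Their median there was -0.27, with 21 negative and 7 positive.

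Within KO, 9 of the 28 oxygen-sensing genes were called between stages, 1 higher and 8 lower at estrus, where 7.67% of all genes were higher and 8.95% lower. The median of the list was 0.05. Hif1a had 4116, 7731 and 7313 normalized counts at estrus against 10937 and 15444 at diestrus (-1.08 ± 0.29, limma adjusted p = 0.0271), and Vegfa, the vascular growth factor, fell by 1.04 ± 0.24 (adjusted p = 0.0176). Arnt fell by 0.95 ± 0.17 (adjusted p = 0.00728). Egln3, an oxygen-sensing prolyl hydroxylase that acts on hypoxia-inducible factors and not on collagen, was higher, by 1.33 ± 0.31 (adjusted p = 0.0177). The other 5, Hif1an, Vhl, Ero1a, Pfkfb4 and Kdm3a, were lower. With either KO diestrus library left out, which leaves that group with 1 library, none of the 28 was called, and without KO estrus library 1 the number called was 4.

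Among genes that handle the cofactors of the hydroxylases, 1 was called between genotypes. All 15 genes described here for ascorbate, iron and 2-oxoglutarate supply were tested, and at estrus none was higher and 1 was lower in KO, where 1.26% of all genes were higher and 2.94% lower. The median log2 difference of the list was -0.14. Ogdh, which consumes 2-oxoglutarate, had 5208, 5442 and 5155 normalized counts in WT estrus and 2694, 4216 and 3536 in KO estrus (-0.62 ± 0.16, limma adjusted p = 0.0492). With single libraries left out, this call held for KO estrus 2 alone (0.0332), and the adjusted p was between 0.0564 and 0.115 for each of the others. None of the 15 was called between genotypes at diestrus, where 0.0395% of all genes were. Within KO, Idh1, Fth1 and Idh2 were higher and Ireb2 lower at estrus, 4 of the 15, where 16.6% of all genes were called. Fth1, the ferritin heavy chain, had 32987, 24847 and 20991 at estrus and 15621 and 13777 at diestrus (0.82 ± 0.21, adjusted p = 0.0225). With either KO diestrus library left out, none of the 15 was called.

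Of 14 other genes of the PDLIM and related LIM domain families, 13 were tested. At estrus none was higher and 1 was lower in KO, where 1.26% of all genes were higher and 2.94% lower. Lmo7 had 3447, 2927 and 2911 normalized counts in WT estrus and 2178, 1475 and 1644 in KO estrus (-0.82 ± 0.16, limma adjusted p = 0.0256). At diestrus the direction was the other way, with 3524 and 3562 in WT and 4008 and 4666 in KO (0.29 ± 0.19, adjusted p = 0.937). Leaving out single libraries ended the estrus call for WT estrus 2 (adjusted p = 0.0622), WT estrus 3 (0.0613), KO diestrus 1 (0.0547) and KO diestrus 2 (0.0548). Fhl1, a LIM-only protein chosen for mention after its values were seen, had 109, 48 and 69 in WT estrus and 40, 14 and 6 in KO estrus (-2.15 ± 0.59, adjusted p = 0.0573). It had 61 and 122 in WT diestrus and 30 and 13 in KO diestrus (-2.07 ± 0.72, adjusted p = 0.646). The 5 KO libraries were thus below the 5 WT libraries, a pattern found in 1.15% of all genes. The medians of these 13 genes were -0.06 at estrus and 0.29 at diestrus.

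**Figure D4:**
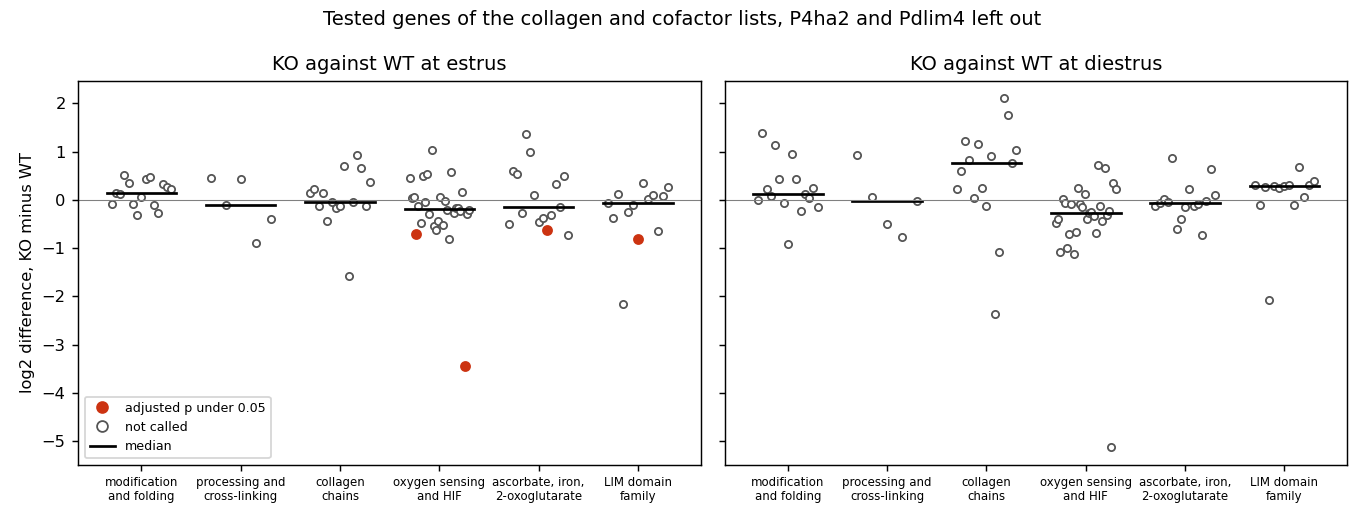
Limma log2 differences of KO minus WT for the tested genes of 6 lists related to the hydroxylases, at estrus (left) and diestrus (right), with P4ha2 and Pdlim4 left out; filled red points have an adjusted p under 0.05 and black lines are list medians. The 4 red points at estrus are Slc2a3, Arnt, Ogdh and Lmo7, and there is none at diestrus.

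The KO estrus libraries also differed from the others in how levels depended on transcript length. The slope of log2 deviation per doubling of exonic length was -0.104, -0.0276 and -0.0614 in KO estrus, between -0.0188 and 0.0274 in WT estrus, 0.0276 and 0.031 in WT diestrus and 0.0506 and 0.0483 in KO diestrus (15146 genes). With each library's length trend removed, the P4ha2 difference was -1.78 at estrus and -2.77 at diestrus, and that of Pdlim4 -0.66 and -1.94. With that correction the estrus differences of Slc2a3, Arnt, Ogdh and Lmo7 were -3.25, -0.51, -0.51 and -0.60, and none of the 4 was called (limma adjusted p of 0.054, 0.069, 0.0793 and 0.100).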

How the data were processed

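RNA-seq of 10 libraries from sorted mammary luminal cells was used. The submitters' processing notes name STAR, HTSeq and DESeq2 and the mm10 build; versions, settings and the annotation are not given in the sources used here. The deposited values are a score, the authors' normalized counts in whole numbers. They are neither raw counts nor scaled to gene length, so no count model was fitted. Symbols and positions came from GENCODE M21 (26249 of 26312 genes had one) and upstream sequences from RefSeq (GRCm38.p6, 6 of 7 members matched).

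limma 3.58.1 (R 4.3.3) was run on log2(value + 1) for 15180 genes with a mean of at least 10, with 4 group means over all 10 libraries and a trend in the spread. Its 5 two-sided contrasts were adjusted by Benjamini-Hochberg over all tested genes (threshold 0.05). Fold changes are on that scale and understate the change of low genes. Where a group has 2 libraries, its spread is borrowed from the other groups. The fit was tested on simulated data. Reads per library were estimated from the spacing of the rounded values. Per-kb levels use the exonic length in GENCODE M21. Figures were drawn with matplotlib 3.10.9.

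Named are all members, the genes within 500 kb of P4ha2, the 5 genes most like P4ha2 and Pdlim4 (mean of at least 50), up to 4 genes per list called at estrus or else the 2 of highest mean, and the cell type markers. Other genes named from the lists (Loxl3, Lox, Loxl1, Loxl2, Col1a1, Col1a2, Col6a3, Fhl1 and those named within KO) were chosen after their values were seen. The members and lists were chosen with earlier results of these data known, and 1 gene of the cofactor list is not reported here. Alternatives were other pseudocounts, filters, scalings and variance models, a length correction, a replicate block, fits of the compared groups only, and leaving out single libraries.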

Additional observations from a re-analysis of the deposited data

How the results depend on the processing

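Under the 10 alternatives tried (9 for the interaction) and with each library left out in turn, the log2 difference of P4ha2 between genotypes stayed between -2.27 and -1.41 at estrus and between -3.13 and -2.39 at diestrus, and that of Pdlim4 between -0.78 and -0.19 and between -2.36 and -1.55. The number of genes called was less stable. At estrus 637 genes were called (191 higher, 446 lower in KO), and 89 with no filter, 214 with the length trend removed, 44 with no trend in the spread, 23 in the compared groups alone, and 67 to 909 with 1 library left out. The split was 271 higher and 303 lower with libraries scaled to equal totals, and 394 and 422 with quantile normalization. At diestrus 6 genes were called, 0 with no filter, 3 with a mean of at least 50, 2 with no trend, 98 in the compared groups alone and 0 to 28 with 1 library left out. Between stages, no WT gene was called (0 to 6 with 1 library left out), and 2524 KO genes were (1626 with no filter, 39 to 2894 with 1 library left out). The interaction had 0 calls, or 0 to 3 with 1 library left out. The estrus calls of Slc2a3, Arnt, Ogdh and Lmo7 ended with no filter, no trend, the length trend removed or the compared groups alone, and that of Ogdh also with equal totals or quantile normalization (adjusted p of 0.0536 to 0.131). The cause of these shifts was not tested.

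Small differences changed sign. Plod1 at estrus was -0.16 without WT estrus 3 (range 0.23 to -0.16 with single libraries left out), and its interaction 0.05 with the length trend removed and 0.04 without WT estrus 1 (range -0.35 to 0.04). Plod3 at estrus was 0.02 with quantile normalization, 0.03 without WT estrus 1 and 0.05 without KO estrus 3 (range -0.19 to 0.05). Plod3 between stages in WT was -0.01 without WT estrus 1 and -0.08 without WT diestrus 1 (range -0.08 to 0.28), and Pdlim4 there was 0.06 without WT diestrus 2 (range -0.33 to 0.06) and 0.10 with the replicate block. With the replicate number as a block, 996 genes were called at estrus, 6 at diestrus, 1 between stages in WT and 2608 in KO. The numbers share only a label: same-numbered libraries of different groups had deviations with r of -0.132 to 0.187 (13 pairs, mean 0.00545), others -0.147 to 0.132 (24 pairs, mean -0.00293).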
